A study of Rattus norvegicus with 11 samples.

Results

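Brain tissue of rats labelled as heterozygous for the R571X mutation of CSB was compared directly with that of wild-type rats. The members were chosen by the titles of the libraries, which gave 2 heterozygous and 3 wild-type libraries of the 11 libraries in the study. The study compared transcripts of rats with a premature stop in CSB with those of carriers and normal rats by RNA sequencing. The heterozygous libraries are titled CSB+/-, but their genotype label reads CSBR571X/-, in which the second allele stands only as a minus sign. The wild-type libraries carry the label WT. The other 6 libraries are homozygous (CSBR571X/R571X) and are used here for comparison. Every group was of the Sprague-Dawley strain, 10 weeks old and labelled as cerebellum cortex, and nothing in the labels says that the libraries of a group came from separate animals, so p-values measure only the spread between these samples, which may be technical.

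CSB is a chromatin remodeller encoded by Ercc6. It binds RNA polymerase that has stopped at a DNA lesion and recruits the factors of transcription-coupled nucleotide excision repair. Loss of both copies in humans causes Cockayne syndrome, a recessive disorder with growth failure, neurodegeneration, loss of myelin and changes of small brain vessels. Carriers of 1 mutant copy are described as unaffected, so the comparison bears on whether a single mutant allele is accompanied by a difference in brain transcripts.

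The libraries held 5406669 and 5999484 reads assigned to features in the heterozygous group and 5771660, 6785567 and 7705525 in the wild-type group. Features without a gene name took 28.7% to 31.5% of the reads. Values are given below as normalized reads, that is, reads divided by 1 scaling factor per library, and differences are heterozygous minus wild type on the log2(value + 1) scale, which understates changes of features with few reads. Heterozygous libraries were deposited in a table normalized together with homozygous replicates 1 to 3 (set 1) and wild-type libraries in a table with homozygous replicates 4 to 6 (set 2), so genotype and table cannot be told apart. The difference between the homozygous libraries of set 1 and of set 2 is therefore given beside the results. None was a repeat of another of its group within counting error: chi-square over degrees of freedom was 23.0 for the heterozygous pair and 13.3 to 41.4 for wild-type pairs. Heterozygous replicate 1 correlated with the wild-type libraries (mean r = 0.939 over features on the log2 scale) as closely as with heterozygous replicate 2 (r = 0.937). Wild-type replicate 1 likewise correlated with the heterozygous libraries at a mean r of 0.939 and with the other wild-type libraries at 0.928.

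The labelled tissue was checked against its defining markers. The granule cell markers Gabra6, Zic1 and Cbln3 and the Purkinje cell markers Pcp2 and Car8 are not among the features listed for all 5 libraries and were not analysed here. Calb1, a calcium-binding protein of Purkinje cells and of many forebrain neurons, was the one of these 6 defining markers that could be tested. Of further cerebellar genes, Neurod1, a transcription factor of granule cells, had 61.9 and 33.3 normalized reads in the heterozygous libraries, against 98.2, 95.6 and 205 in the wild-type libraries, and Pcp4, a calmodulin-binding protein of Purkinje and other neurons, had 3018 and 3111 in the heterozygous libraries, against 2139, 4103 and 3435 in the wild-type libraries. Neurod6, a transcription factor of forebrain excitatory neurons, had 563 and 271 reads in the heterozygous libraries, against 323, 1920 and 2391 reads in the wild-type libraries. Emx1, a transcription factor of the dorsal forebrain, had 287 and 344 reads in the heterozygous libraries, against 243, 353 and 597 in the wild-type libraries. Hoxb3, a hindbrain gene, had 0 and 4 reads in the heterozygous libraries and none in the wild-type libraries. The forebrain markers read in all 5 libraries go against the label, and the samples are called brain tissue here. Neurod6 was uneven within the wild-type group, where replicate 1 was low.

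Ercc6 was lower in both heterozygous libraries than in every wild-type library (chromosome 16, 8734035 to 8804610, plus strand, rn6). It had 215 and 167 normalized reads in the heterozygous libraries, against 282, 391 and 340 in the wild-type libraries. The groups did not overlap, and wild-type replicate 1 lay nearest to the heterozygous libraries. The heterozygous libraries averaged 191 ± 33.5 normalized reads (SD, n = 2) and the wild-type libraries 338 ± 54.7 (SD, n = 3), so the heterozygous mean was 56.6% of the wild-type mean. The log2 difference was -0.82 (SE 0.25), with an unadjusted p of 0.0124 and an adjusted p of 0.584 by limma over all features. A two-sided exact permutation test over the 10 arrangements of the 5 libraries gave p = 0.1, the smallest it allows. The homozygous libraries held 81.0 to 146 normalized reads, with a mean 36.6% of the wild-type mean, and those of set 1 averaged 144 against 103 in set 2, a difference of 0.50 on the log2 scale. That difference between the sets had a SE of 0.24 and an adjusted p of 0.961 in limma. Taken through the homozygous libraries of each table, the heterozygous difference was -1.30 (SE 0.32, adjusted p = 0.572 in limma). The order of the groups follows the labels, with heterozygous libraries between homozygous and wild-type libraries, but the difference did not pass the threshold across all features.

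Of 23093 features listed for all 5 libraries, 15600 had a mean of at least 5 normalized reads and were tested. Heterozygous and wild-type libraries differed past the threshold, a Benjamini-Hochberg adjusted p under 0.05 in limma, in 3 features, which is 0.0192% of those tested. All 3 fell in the heterozygous libraries and none has a gene name. At an unadjusted p under 0.05, 734 features were higher in the heterozygous libraries (4.71%) and 558 were lower (3.58%). The median log2 difference over all features was -0.02 and the median standard error 0.40. The same test between homozygous libraries of set 1 and set 2 also called 3 features, or 0.0192% of those tested, and these were other features, again without gene names. The number of calls between the genotypes was thus the same as between homozygous libraries of the 2 tables. The group sizes differ, however, with 2 libraries against 3 between the genotypes and 3 against 3 between the sets. At an unadjusted p under 0.05 in limma, 769 features differed between the homozygous sets, against 1292 between the genotypes.

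**Figure D1:**
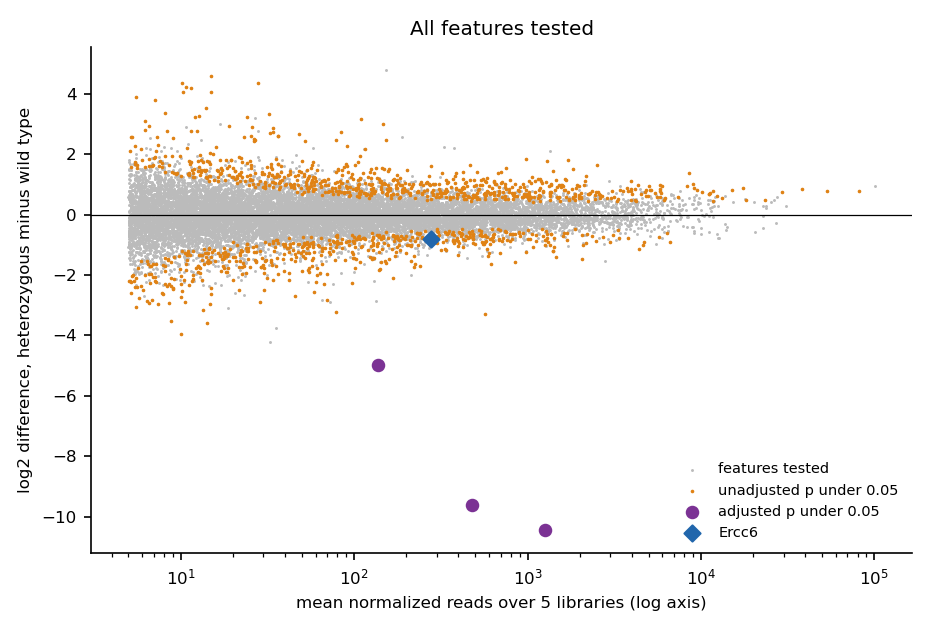
Log2 difference between heterozygous and wild-type libraries (vertical axis) against mean normalized reads over the 5 libraries (horizontal log axis) for the 15600 features tested; each point is 1 feature. The 3 features past the threshold lie at -4.97, -9.61 and -10.46, far below the rest, and Ercc6 lies at -0.82 among the many features at an unadjusted p under 0.05.

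Each of the 3 features that fell was close to absent from both heterozygous libraries. A pair of them lie on chromosome X and overlap each other on opposite strands. The minus-strand feature (X, 74330523 to 74345039) had 0 reads in both heterozygous libraries, against 605, 874 and 1215 reads in the wild-type libraries (log2 difference -9.61, SE 0.31, adjusted p = 1.3e-04 in limma). Taking 3 reads over the group as the floor, it was at least 458-fold lower in the heterozygous libraries, a bound that covers counting error only. The plus-strand feature (X, 74314653 to 74347926) had 1 and 0 reads in the heterozygous libraries, against 1971, 1847 and 3270 in the wild-type libraries (log2 difference -10.46, SE 0.39, adjusted p = 1.64e-04). The strand setting of the counting is not given in the sources used here, so reads of the 2 overlapping features cannot be told apart.

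In the files these features lie between Tsx and Mir421. RefSeq, in the GRCr8 assembly, lists Xist, Jpx and Ftx among the genes between the same neighbours. Xist is the long RNA that coats the inactive X chromosome and is made in female cells. No name is given to the 2 features here, since the files give none and the builds differ. Levels of sex-linked genes were therefore read in every library. Eif2s3y, a translation initiation factor gene on chromosome Y (914045 to 933699, plus strand), had 0 and 669 reads in the heterozygous libraries, against 0, 0 and 0 in the wild-type libraries. All 12 features of chromosome Y together had 18 and 809 reads in the heterozygous libraries, against 16, 14 and 30 in the wild-type libraries. Heterozygous replicate 2 thus had Y-linked reads, while heterozygous replicate 1 had neither Y-linked reads above the wild-type level nor reads of the chromosome X pair.

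In the homozygous libraries the same features were also uneven. Homozygous replicates 2, 3, 4 and 6 had 890 to 1875 reads of Eif2s3y, 0 to 1 read of the minus-strand chromosome X feature and 4 to 14 reads of the plus-strand one. Homozygous replicates 1 and 5 had 0 to 1 read of Eif2s3y, 441 to 1557 reads of the minus-strand feature and 1695 to 3214 of the plus-strand one. Among these 6 libraries of 1 genotype, then, the chromosome X pair was read where Eif2s3y was not. Eif2s3, the X-linked partner gene of Eif2s3y, had 1583 and 1811 normalized reads in the heterozygous libraries, against 2550, 2882 and 2871 in the wild-type libraries. Sex is not given in the labels, and genotype and sex-linked reads cannot be told apart for the chromosome X pair. Within the heterozygous and wild-type libraries the same limit holds for every other difference between the groups. All wild-type libraries had reads of the pair and none of Eif2s3y, while each heterozygous library had at most 1 read of either feature. Over the 555 features tested on chromosome X the median log2 difference was -0.14, while the medians of the other chromosomes ran from -0.11 to 0.09.

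**Figure D2:**
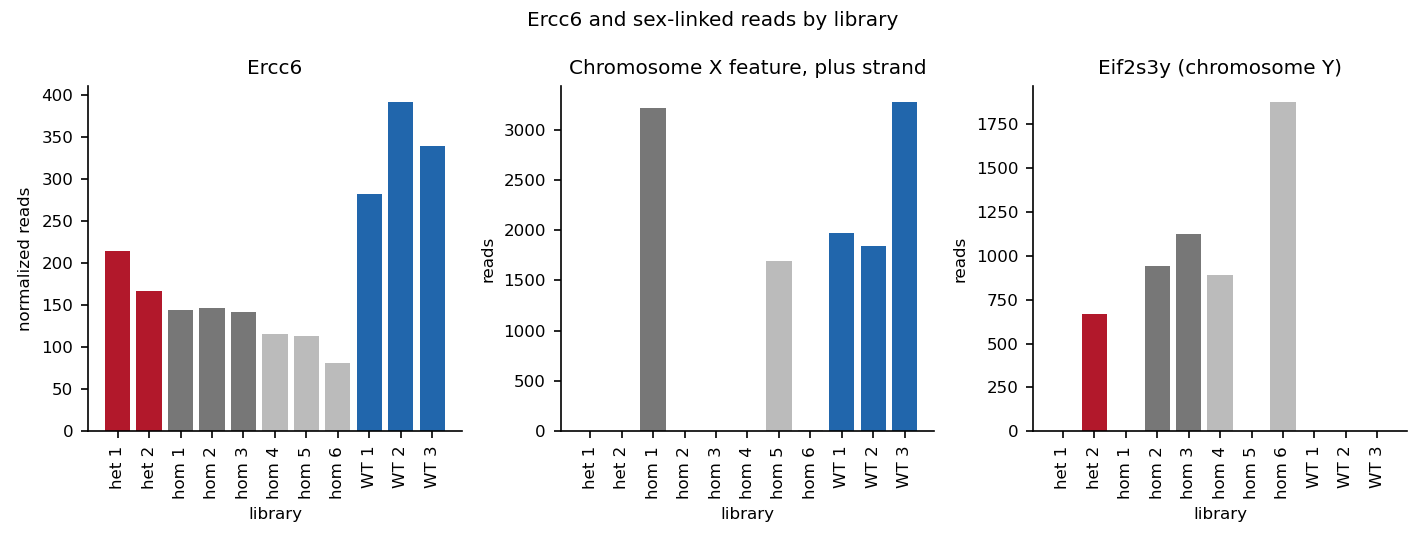
Normalized reads of Ercc6 (left), reads of the plus-strand chromosome X feature (middle) and reads of Eif2s3y (right) in each library; red bars are heterozygous, dark grey homozygous of set 1, light grey homozygous of set 2 and blue wild type. Ercc6 is lower in both heterozygous bars than in every wild-type bar, the chromosome X feature is at 1 and 0 reads in the heterozygous libraries, and Eif2s3y is read in heterozygous replicate 2 and in homozygous replicates 2, 3, 4 and 6.

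The third feature that fell lies on chromosome 5 (150490328 to 150491659, minus strand). It had 5.84 and 5.73 normalized reads in the heterozygous libraries, against 332, 161 and 179 in the wild-type libraries (log2 difference -4.97, SE 0.39, adjusted p = 0.0196). The homozygous libraries of both tables held 1.57 to 5.51 normalized reads, close to the heterozygous level, and did not overlap the wild-type libraries. A feature on the opposite strand covers the same stretch (150489317 to 150492066). That feature had 418 and 585 normalized reads in the heterozygous libraries, 245 to 507 in the homozygous libraries and 235, 208 and 274 in the wild-type libraries. In limma on the 5 libraries, the call of the minus-strand feature depended on the chromosome X pair being tested with it. Over the 15041 features outside chromosomes X and Y, an alternative chosen after seeing the data, no feature passed the threshold. The minus-strand feature also passed with all 11 libraries and no term for the set (adjusted p = 0.0032 in limma) and with DESeq2. With a term for the set (adjusted p = 0.0746 in limma), with edgeR (0.107) and with limma-voom it did not pass.

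No gene with a name passed the threshold in either direction. The 12 named genes with the smallest p on each side are described next as having missed it. Their adjusted p-values ran from 0.484 to 0.584 in limma. Each of the 24 had groups that did not overlap, which was also true of 2167 features higher in the heterozygous libraries (13.9%) and 1986 lower (12.7%). DESeq2, run on the recovered reads as an alternative, called 40 features (0.256%), with 27 higher and 13 lower in the heterozygous libraries. Those of the 24 genes that it called are marked below.

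The 12 genes on the higher side are given first. Vwa1, an extracellular matrix protein of the von Willebrand factor A family (chromosome 5, 173216741 to 173222440), had 2614 and 3396 normalized reads in the heterozygous libraries, against 1261, 949 and 958 in the wild-type libraries (log2 difference 1.51, SE 0.22). Thsd1, a membrane protein of endothelial cells, had 1133 and 955 normalized reads in the heterozygous libraries, against 573, 439 and 472 in the wild-type libraries (1.08, SE 0.21). Sox18, a transcription factor of endothelial development, had 589 and 765 in the heterozygous libraries, against 362, 190 and 228 in the wild-type libraries (1.42, SE 0.31). In each of these the wild-type library nearest to the heterozygous ones was replicate 1. Tmem204, a protein of endothelial cell junctions, had 451 and 679 normalized reads in the heterozygous libraries, against 276, 216 and 242 in the wild-type libraries (1.18, SE 0.25). DESeq2 called Vwa1, Thsd1 and Tmem204, and not Sox18. The homozygous libraries of set 1 and set 2 differed by 0.04 for Vwa1, 0.39 for Thsd1, 0.56 for Sox18 and 0.01 for Tmem204 on the log2 scale.

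F2rl1, a receptor that proteases activate by cutting it, had 71.2 and 136 normalized reads in the heterozygous libraries, against 16.7, 16.2 and 19.0 in the wild-type libraries (log2 difference 2.45, SE 0.39). Nfe2l3, a transcription factor of the cap'n'collar family, had 73.6 and 72.3 in the heterozygous libraries, against 17.8, 9.92 and 7.92 in the wild-type libraries (2.60, SE 0.44). Both were called by DESeq2, and the homozygous libraries of both tables lay near the wild-type level, at means of 17.5 (set 1) and 20.1 (set 2) for F2rl1 and 14.0 and 9.80 for Nfe2l3. Card10, a scaffold protein of signalling to NF-kB, had 262 and 393 normalized reads in the heterozygous libraries, against 157, 96.5 and 95.8 in the wild-type libraries (1.49, SE 0.32). Prx, periaxin, a protein of myelinating Schwann cells, had 121 and 141 in the heterozygous libraries, against 55.4, 37.9 and 45.9 in the wild-type libraries (1.49, SE 0.29). Both were also called by DESeq2. Slc9a3r2, a scaffold that anchors membrane transporters, had 856 and 1035 normalized reads in the heterozygous libraries, against 532, 379 and 398 in the wild-type libraries (1.12, SE 0.23). Psd, an exchange factor for the small GTPase Arf6, had 1885 and 2222 in the heterozygous libraries, against 1242, 979 and 1081 in the wild-type libraries (0.90, SE 0.20). DESeq2 called Slc9a3r2 and not Psd, and both genes share their strand with an overlapping feature, so their reads are uncertain.

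For Nilr1 and Echs1, both called by DESeq2, the tables themselves differed. Nilr1 had 26.9 and 22.9 normalized reads in the heterozygous libraries, against 1.05, 0 and 0 in the wild-type libraries. Homozygous libraries averaged 15.2 normalized reads in set 1 and 0.74 in set 2, a log2 difference of 3.57, compared with 4.35 (SE 0.71) between the genotypes. Echs1, an enzyme of mitochondrial fatty acid oxidation, had 73.6 and 281 normalized reads in the heterozygous libraries, against 21.9, 16.2 and 25.3 in the wild-type libraries (2.73, SE 0.57). Its homozygous mean was 361 normalized reads in set 1 and 86.1 in set 2, a log2 difference of 2.61, and the gene shares its strand with 2 overlapping features. Taken through the homozygous libraries of each table, the heterozygous difference was 0.91 for Nilr1 and 0.14 for Echs1. These are the genes on the higher side for which most of the difference between the genotypes was also seen between homozygous libraries of the 2 tables.

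On the lower side the first genes are of unrelated kinds. SNORA44, a small nucleolar RNA (chromosome 8, 104069768 to 104069894, minus strand), had 9.34 and 13.8 normalized reads in the heterozygous libraries, against 198, 78.5 and 93.5 in the wild-type libraries (log2 difference -3.21, SE 0.46). Fcrl2, a receptor of the Fc receptor-like family of immune cells, had 11.7 and 14.9 in the heterozygous libraries, against 158, 67.6 and 95.8 in the wild-type libraries (-2.84, SE 0.42). Both overlap a feature on the opposite strand. Their homozygous levels were low as well, averaging 25.4 in each set for SNORA44 and 34.6 in set 1 and 20.3 in set 2 for Fcrl2, so for both the wild-type libraries were the high ones. Sncg, gamma-synuclein, a protein of neurons with long axons, had 138 and 37.9 normalized reads in the heterozygous libraries, against 1633, 306 and 726 in the wild-type libraries (-3.28, SE 0.76). Its wild-type values were far apart, at a SD of 678 around a mean of 888. Pnpla2, the lipase that starts the breakdown of stored triglyceride, had 19.9 and 24.1 in the heterozygous libraries, against 61.7, 81.2 and 87.9 in the wild-type libraries (-1.75, SE 0.32). Calcoco1, a receptor in autophagy of the endoplasmic reticulum, had 67.7 and 58.5 in the heterozygous libraries, against 153, 177 and 255 in the wild-type libraries (-1.58, SE 0.30). Each of these 5 genes was called by DESeq2. For Calcoco1 the homozygous libraries of set 1 lay 1.42 below those of set 2, and the difference through the sets was -0.15.

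The other 7 genes on the lower side were not called by DESeq2. Klf5, a zinc finger transcription factor, had 92.3 and 48.2 normalized reads in the heterozygous libraries, against 258, 181 and 180 in the wild-type libraries (log2 difference -1.59, SE 0.35). Wnt16, a secreted signalling protein, had 11.7 and 17.2 in the heterozygous libraries, against 57.5, 41.5 and 48.3 in the wild-type libraries (-1.71, SE 0.37). Emb, embigin, a partner of lactate transporters at the cell surface, had 51.4 and 32.1 in the heterozygous libraries, against 94.1, 122 and 143 in the wild-type libraries (-1.51, SE 0.33). Homozygous means in set 1 and set 2 were 290 and 213 for Klf5, 47.2 and 55.0 for Wnt16 and 129 and 139 for Emb, nearer to the wild-type than to the heterozygous levels. The synaptotagmin gene Syt10 and the contactin gene Cntn3, a neuronal adhesion protein, had differences of -2.51 (SE 0.53) and -1.44 (SE 0.33). Plpp6, a lipid phosphatase, had 505 and 438 normalized reads in the heterozygous libraries, against 790, 879 and 830 in the wild-type libraries (-0.82, SE 0.19), with the closest agreement among the wild-type libraries of these genes. Vwa5b1 had 0 reads in both heterozygous libraries, against 18.8, 25.3 and 6.34 normalized reads in the wild-type libraries. That is at least 9.68-fold lower with a floor of 3 reads over the group. This gene shares its strand with an overlapping feature, so its reads are uncertain.

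**Figure D3:**
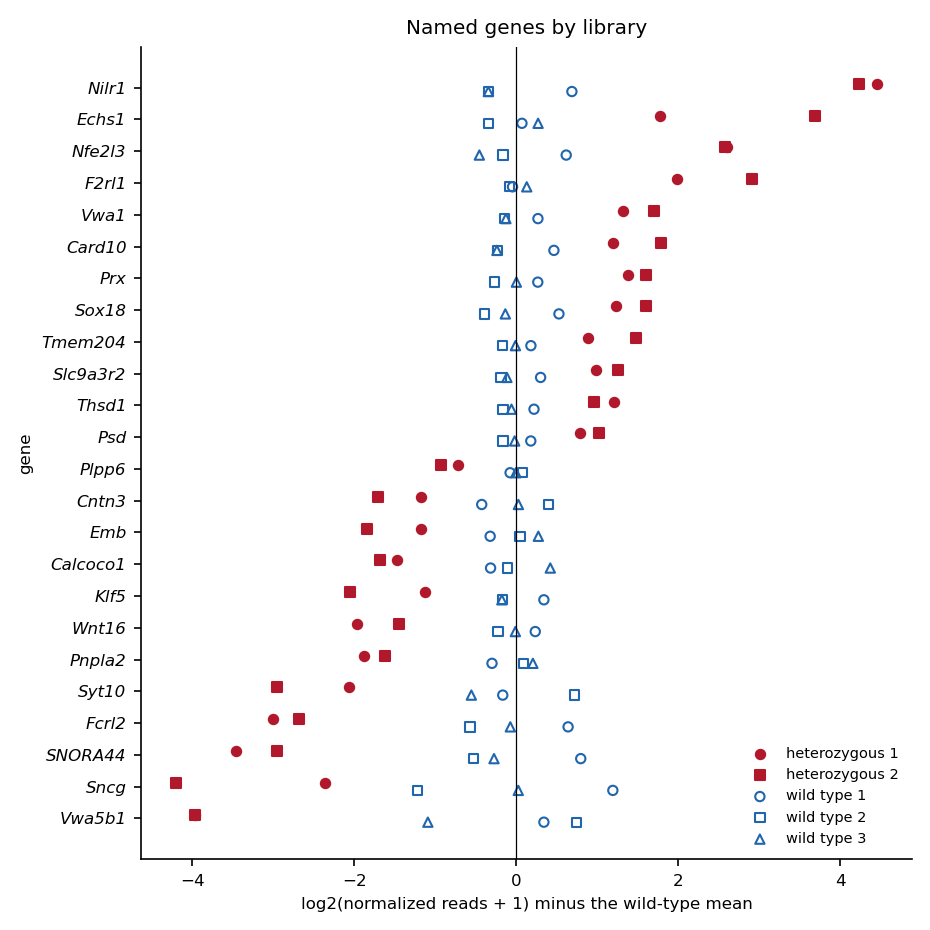
Log2(normalized reads + 1) minus the wild-type mean (horizontal axis) for the 24 named genes with the smallest p (rows), with filled red symbols for heterozygous libraries and open blue symbols for wild-type libraries; symbols mark the replicates, and the 2 heterozygous points of Vwa5b1 coincide. In every row the red symbols lie on 1 side of the blue ones, and the spread among blue symbols is widest for Sncg.

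Gene lists were described by their members' counts and medians, with no test of a list. In bulk tissue, fewer cells of a type and less RNA per cell cannot be told apart. Some members share their strand with an overlapping feature, among them Abcb1a, Aif1, Bcas1, Mobp, Tef and Nr1d1, so their reads are uncertain. No member of a list passed the threshold, and the smallest adjusted p among list members was 0.584. Against this, 48.7% of all features tested had a positive difference.

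The endothelial list was higher in every member tested. All 7 tested genes, of 11 listed for all libraries, had a positive difference, with a median of 0.74, and 5 of the 7 were higher at an unadjusted p under 0.05. Slc2a1, which carries glucose across brain vessel walls, had 9066 and 18350 normalized reads in the heterozygous libraries, against 6182, 4205 and 4642 in the wild-type libraries (log2 difference 1.38, SE 0.33), and DESeq2 called it. Podxl, a sialomucin of the endothelial surface, had 2895 and 3681 in the heterozygous libraries, against 2210, 998 and 1089 in the wild-type libraries (1.28, SE 0.36). Slco1c1, a thyroxine transporter of brain vessels, had 2708 and 3306 in the heterozygous libraries, against 2213, 1982 and 2090 in the wild-type libraries (0.52, SE 0.18). In all 3 the groups did not overlap and wild-type replicate 1 was the highest of its group. Emcn, endomucin, had a difference of 0.78 (SE 0.29) and Abcb1a, an efflux pump of the barrier, one of 0.71 (SE 0.29), also without overlap. Tek, the angiopoietin receptor, and Vwf, von Willebrand factor, overlapped between the groups (0.57, SE 0.36, and 0.74, SE 0.49). Cldn5, the defining tight junction gene, was not analysed here.

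The mean level of the 7 endothelial genes on the log2 scale was 10.13 and 10.76 in the heterozygous libraries, against 10.05, 9.27 and 9.45 in the wild-type libraries. Wild-type replicate 1 thus lay just under heterozygous replicate 1, and it was the highest wild-type library for 7 of the 7 genes, while over all features it was the highest of the 3 for 39.4%. Without wild-type replicate 1 the median difference of the list was 0.93, and without heterozygous replicate 2 it was 0.52. The homozygous libraries ranged from 8.77 to 9.52, and the list's median difference between their sets was 0.10. The endothelial difference between the genotypes was not matched by one of that size between homozygous libraries of the 2 tables.

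Genes of mural cells, the pericytes and smooth muscle cells that wrap vessels, ran the same way with more overlap. All 9 tested members had a positive difference (median 0.48), and 2 were higher at an unadjusted p under 0.05. Rgs5, a regulator of G-protein signalling that marks pericytes, had 1149 and 2135 normalized reads in the heterozygous libraries, against 1151, 712 and 738 in the wild-type libraries (log2 difference 0.89, SE 0.33). Higd1b, a pericyte gene of the hypoxia-inducible domain family, had 139 and 154 in the heterozygous libraries, against 105, 61.3 and 91.9 in the wild-type libraries (0.79, SE 0.31), without overlap. Acta2, smooth muscle actin, had 437 and 465 in the heterozygous libraries, against 478, 162 and 252 in the wild-type libraries. Rgs5 and Acta2 in wild-type replicate 1 were thus at or above heterozygous replicate 1. The median of the list was 0.88 without wild-type replicate 1 and 0.31 without wild-type replicate 2, and between homozygous sets it was 0.00 (-0.22 without homozygous replicate 6, the lowest of its group).

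Fibroblast, choroid plexus and ependymal genes had medians whose sign turned when 1 library was left out. Of 9 meningeal fibroblast genes, 2 had a positive and 7 a negative difference (median -0.22), and none reached an unadjusted p under 0.05. Col1a1, a collagen of fibroblasts, had 264 and 153 normalized reads in the heterozygous libraries, against 1309, 97.4 and 360 in the wild-type libraries. Igf2, a growth factor made in the meninges, had 179 and 98.6 in the heterozygous libraries, against 1474, 38.8 and 323 in the wild-type libraries. For both genes the heterozygous libraries lay inside the wide wild-type range, whose top was replicate 1. Without wild-type replicate 1 the median of the fibroblast list was 0.24, and without wild-type replicate 2 it was -0.61. Between homozygous sets it was 0.75. Choroid plexus genes had 3 positive and 4 negative differences (median -0.14) and ependymal genes 1 and 4 (median -0.27). Without 1 library in turn the choroid plexus median ran from -1.70 (without wild-type replicate 2) to 0.59 (without wild-type replicate 3), and it was positive without wild-type replicate 1 (0.20) and heterozygous replicate 2 (0.03) too. The ependymal median ran from -2.08 (without heterozygous replicate 1) to 1.70 (without heterozygous replicate 2), and it was 0.43 without wild-type replicate 3.

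Microglial genes were higher in each tested member. All 6 had a positive difference (median 0.84), and 3 were higher at an unadjusted p under 0.05. C1qb, a chain of complement C1q, had 2639 and 2213 normalized reads in the heterozygous libraries, against 1867, 804 and 844 in the wild-type libraries (log2 difference 1.16, SE 0.38). Aif1, the microglial protein also called Iba1, had 1031 and 760 in the heterozygous libraries, against 771, 258 and 372 in the wild-type libraries (1.07, SE 0.44). The groups did not overlap for C1qb, and for Aif1 wild-type replicate 1 lay above heterozygous replicate 2. The list's mean log2 level was 8.19 and 8.48 in the heterozygous libraries, against 8.34, 6.92 and 7.09 in the wild-type libraries. Wild-type replicate 1 therefore lay between the heterozygous libraries, and wild-type replicates 2 and 3 lay below. Without wild-type replicate 1 the median of the list was 1.41. P2ry12 and Cx3cr1 were not analysed here.

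Astrocyte genes were mixed, with 7 positive and 3 negative differences (median 0.33). S100b, a calcium-binding protein of astrocytes, had 11477 and 14086 normalized reads in the heterozygous libraries, against 9154, 4337 and 6246 in the wild-type libraries (log2 difference 1.02, SE 0.32), without overlap. Aldoc, the aldolase of astrocytes, had a difference of 0.87 (SE 0.27). Gfap, the astrocyte filament protein, had 15160 and 11137 normalized reads in the heterozygous libraries, against 15856, 5604 and 10628 in the wild-type libraries. Wild-type replicate 1 was the highest wild-type library for 10 of the 10 astrocyte genes. Without it the median of the list was 0.56, without wild-type replicate 2 it was 0.08 and without wild-type replicate 3 it was 0.17. The astrocyte median between homozygous sets was 0.22, so through the sets the median between the genotypes was 0.08. Of 3 precursor genes of oligodendrocytes, Olig1, a transcription factor of that lineage, had 6983 and 8902 normalized reads in the heterozygous libraries, against 4454, 4162 and 4624 in the wild-type libraries (0.84, SE 0.19), without overlap and with close agreement among the wild-type libraries. Bcas1, found in oligodendrocytes that begin to make myelin, had 31.5 and 33.3 in the heterozygous libraries, against 13.6, 9.92 and 17.4 in the wild-type libraries (1.22, SE 0.41). Genes of mature oligodendrocytes had 3 positive and 5 negative differences (median -0.03). Mobp, a myelin protein, had 1732 and 2784 in the heterozygous libraries, against 584, 1985 and 2204 in the wild-type libraries, where replicate 1 was far below the others. The oligodendrocyte median was -0.34 without wild-type replicate 1 and -0.18 without heterozygous replicate 2, and 0.22 to 0.25 without any of the other libraries. Blood genes had 6 positive and 1 negative difference (median 0.58) and none reached an unadjusted p under 0.05. Their median was -0.54 without heterozygous replicate 2, 1.74 without heterozygous replicate 1, 1.16 without wild-type replicate 1 and 0.17 without wild-type replicate 2.

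**Figure D4:**
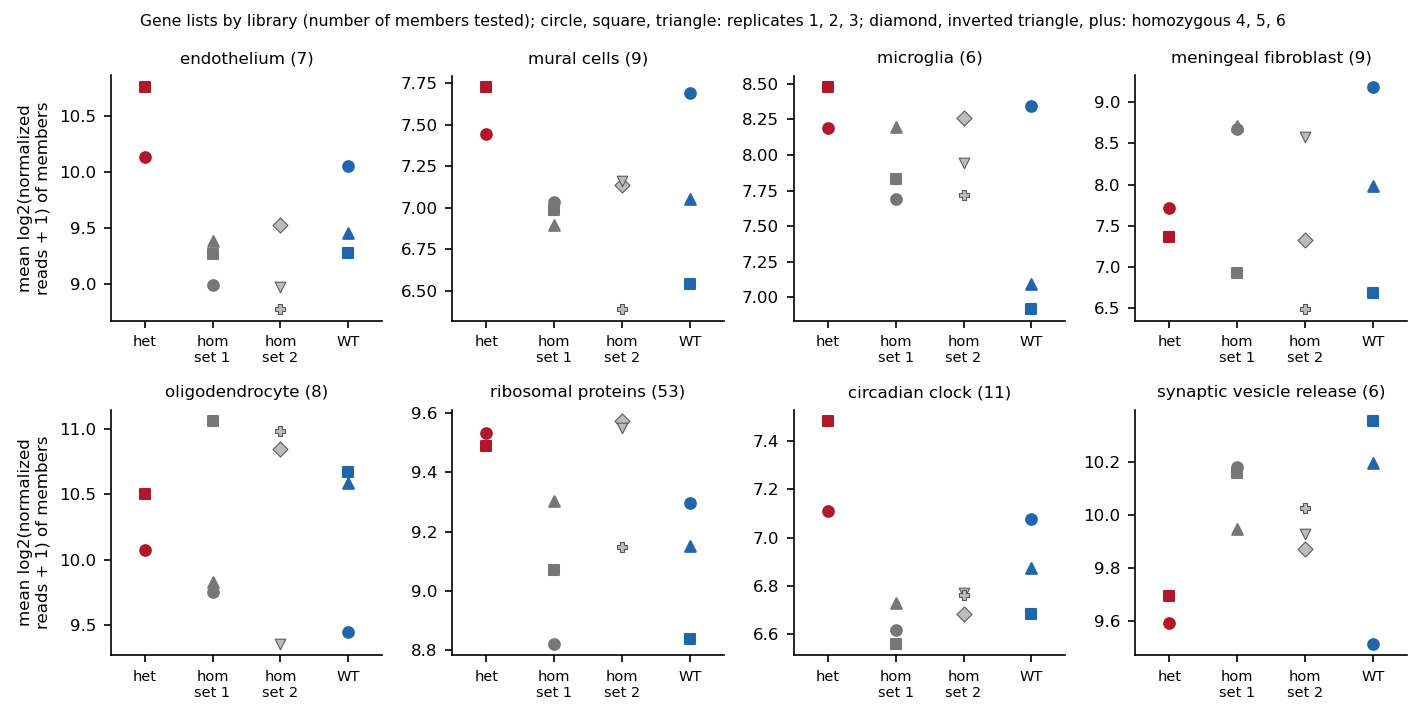
Mean log2(normalized reads + 1) of the tested members of 8 gene lists (vertical axes, each with its own range) in each library of the heterozygous group, the homozygous libraries of set 1 and set 2, and the wild-type group; symbols mark the replicates. Wild-type replicate 1 (blue circle) lies near or among the red heterozygous points for endothelium, mural cells, microglia and synaptic vesicle release, while wild-type replicates 2 and 3 lie apart from it.

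Clock genes were described because the time of day of tissue collection is not given in the labels and sets their level in many tissues. CLOCK and BMAL1 bind E-boxes in the promoters of the Per, Cry and Nr1d genes and of the output genes Dbp and Tef, whose products feed back on the cycle. Per1 and Per2 were not analysed here. The canonical E-box, CACGTG, reads the same on both strands and was searched in RefSeq windows (GRCr8) of 250 bases before to 50 bases after each gene's start. Of 11 clock genes tested, 9 had a window and 3 of these held the motif, while 2148 of all 33469 windows (6.42%) held it. The stretches around these motifs follow with the E-box in capitals, because this is the element that the activators of the clock are known to bind. They lie at chr2:186112247-186112359 (minus strand), chr7:115206609-115206654 (plus strand) and chr10:84229620-84229665 (minus strand).
Ciart: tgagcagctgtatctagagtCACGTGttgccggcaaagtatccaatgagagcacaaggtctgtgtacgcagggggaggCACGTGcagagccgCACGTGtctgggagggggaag
Tef: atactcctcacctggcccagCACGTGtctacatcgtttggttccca
Nr1d1: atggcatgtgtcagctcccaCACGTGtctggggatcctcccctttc
The Ciart window held 3 E-boxes and the other 2 windows 1 each. A match describes the letters of the window and is not evidence of binding.

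Of the 11 clock genes tested, 10 had a positive difference (median 0.50), and 2 were higher at an unadjusted p under 0.05. Cry1, a repressor of CLOCK and BMAL1, had 487 and 485 normalized reads in the heterozygous libraries, against 352, 312 and 326 in the wild-type libraries (log2 difference 0.56, SE 0.19). Cry2, its paralog, had 1285 and 1173 in the heterozygous libraries, against 1010, 869 and 749 in the wild-type libraries (0.50, SE 0.20). Dbp, an output transcription factor of the clock with a wide daily cycle, had 5633 and 6970 in the heterozygous libraries, against 5649, 2861 and 4227 in the wild-type libraries (0.62, SE 0.30). The groups were apart for Cry1 and Cry2, while for Dbp wild-type replicate 1 lay just above heterozygous replicate 1. The 3 genes with an E-box in the window overlapped between the groups, at 0.30 (SE 0.42) for Ciart, a clock repressor, 0.15 (SE 0.26) for Tef and 0.60 (SE 0.57) for Nr1d1, the nuclear receptor REV-ERB alpha. The clock list's median was 0.29 without wild-type replicate 2, and between homozygous sets it was -0.11.

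Genes that glucocorticoids induce are also under daily and stress control. Of 8 tested, 7 had a positive difference (median 0.76), and 3 were higher at an unadjusted p under 0.05. Ddit4, an inhibitor of mTOR signalling, had 1491 and 3091 normalized reads in the heterozygous libraries, against 1447, 828 and 1070 in the wild-type libraries (log2 difference 0.98, SE 0.36). Nfkbia, the inhibitor of NF-kB, had 501 and 1857 in the heterozygous libraries, against 593, 275 and 299 in the wild-type libraries (1.40, SE 0.57). For both genes heterozygous replicate 2 was far above heterozygous replicate 1 and the wild-type libraries. The highest homozygous library had 3014 normalized reads of Ddit4 and 843 of Nfkbia. Without heterozygous replicate 2 the list's median was 0.42, while without heterozygous replicate 1 it was 1.35. The metallothionein gene Mt2A had 1886 and 3457 in the heterozygous libraries, against 1731, 998 and 1503 in the wild-type libraries (0.89, SE 0.34). Sgk1, a kinase that glucocorticoids induce, was the member with a negative difference (-0.55, SE 0.47).

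Ribosomal protein genes were slightly higher in most members. Of 53 features tested, from 49 genes, 45 had a positive and 8 a negative difference (median 0.48), and 10 were higher and none lower at an unadjusted p under 0.05. The groups did not overlap for 32 on the higher side and for 2 on the lower side, beside 13.9% and 12.7% of all features. Rpl38 had 78.2 and 96.3 normalized reads in the heterozygous libraries, against 34.5, 23.4 and 34.9 in the wild-type libraries (log2 difference 1.48, SE 0.33). Rps29 had 14313 and 14962 in the heterozygous libraries, against 11078, 7093 and 9043 in the wild-type libraries (0.71, SE 0.23). Rpl37 had 1768 and 1812 in the heterozygous libraries, against 1370, 831 and 1038 in the wild-type libraries (0.76, SE 0.24). In all 3 the heterozygous libraries were close to each other and wild-type replicate 2 was the lowest. The genes have many near-identical pseudogenes, and reads may have been split among copies. The list's median between homozygous sets was -0.44, opposite to the difference between the genotypes, so through the sets it was 0.87. Without wild-type replicate 2 the median between the genotypes was 0.31.

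Nuclear genes of the respiratory chain had 35 positive and 9 negative differences among 44 features, with a median of 0.17 and 1 at an unadjusted p under 0.05. Cox6a1, a subunit of cytochrome c oxidase, had 12927 and 15015 normalized reads in the heterozygous libraries, against 11096, 8976 and 10393 in the wild-type libraries (log2 difference 0.46, SE 0.19). The median was 0.08 without wild-type replicate 2, and the homozygous sets differed by -0.45 at the median of this list. Of 5 features of the mitochondrial genome, 4 had a positive difference (median 0.49) and the groups overlapped in each. Mt-nd5, a subunit of complex I, had 10901 and 12204 normalized reads in the heterozygous libraries, against 11656, 5535 and 6270 in the wild-type libraries. Wild-type replicate 1 again stood with the heterozygous libraries, and without it the median of the 5 features was 0.79, while without wild-type replicate 2 it was 0.33.

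Immune genes had mostly positive differences, and the homozygous sets differed in the opposite direction. Of 19 interferon response genes, 15 had a positive difference (median 0.43) and 1 was higher at an unadjusted p under 0.05. Ifit3, an interferon-induced antiviral protein, had 39.7 and 159 normalized reads in the heterozygous libraries, against 41.8, 18.9 and 23.0 in the wild-type libraries (log2 difference 1.56, SE 0.63). Ifit1, of the same family, had 112 and 0 in the heterozygous libraries, against 126, 55.9 and 67.3 in the wild-type libraries. The 2 heterozygous libraries were thus far apart for these genes, in opposite order. Of 12 antigen presentation genes, 9 had a positive difference (median 0.49) and 2 were higher at an unadjusted p under 0.05. Psmb8, a subunit of the immunoproteasome, had 148 and 268 in the heterozygous libraries, against 135, 56.8 and 89.5 in the wild-type libraries (1.17, SE 0.43). B2m, the light chain of MHC class I, had 14740 and 16073 in the heterozygous libraries, against 13350, 6348 and 8293 in the wild-type libraries (0.79, SE 0.31). Without wild-type replicate 2 the median was 0.24 for the interferon list and 0.11 for the antigen presentation list, which had 0.99 without wild-type replicate 1. Without heterozygous replicate 2 the interferon median was 0.28, and without heterozygous replicate 1 the antigen presentation median was 0.32. The medians between homozygous sets were -0.57 for the interferon list and -0.43 for the antigen presentation list.

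Genes of nucleotide excision repair, the pathway of CSB itself, had 3 positive and 9 negative differences (median -0.26). Ercc6 was the only one of the 12 at an unadjusted p under 0.05. Rad23b, which stabilizes the lesion sensor XPC, had 2956 and 2928 normalized reads in the heterozygous libraries, against 3094, 5099 and 4346 in the wild-type libraries (log2 difference -0.48, SE 0.24). Cdk7, the kinase of the repair and transcription factor TFIIH, had 66.6 and 79.1 in the heterozygous libraries, against 89.9, 107 and 104 in the wild-type libraries (-0.46, SE 0.26). The groups did not overlap for either gene. Ercc3, the TFIIH helicase XPB, had 893 and 911 in the heterozygous libraries, against 896, 1140 and 1109 in the wild-type libraries (-0.21, SE 0.20). Pcna, the sliding clamp of repair synthesis, had 761 and 793 in the heterozygous libraries, against 681, 656 and 653 in the wild-type libraries (0.23, SE 0.18).

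Targets of p53 had 10 positive and 3 negative differences (median 0.19). Pmaip1, the pro-apoptotic protein Noxa, had 265 and 518 normalized reads in the heterozygous libraries, against 227, 225 and 188 in the wild-type libraries (log2 difference 0.80, SE 0.32). Without its higher library, heterozygous replicate 2, the median of the list was 0.02, and without wild-type replicate 2 it was 0.31. Plk2, a kinase that neuronal activity also induces, had 1558 and 1161 in the heterozygous libraries, against 1623, 3814 and 2717 in the wild-type libraries (-0.93, SE 0.36). Pmaip1 and Plk2 were the members at an unadjusted p under 0.05, in opposite directions. Heat shock genes had 4 positive and 5 negative differences (median -0.08). Hspb1, the small heat shock protein Hsp27, which vessels and astrocytes also make, had 551 and 642 in the heterozygous libraries, against 393, 146 and 205 in the wild-type libraries (1.38, SE 0.40). Dnajb1, a co-chaperone, had 966 and 989 in the heterozygous libraries, against 1181, 1530 and 1408 in the wild-type libraries (-0.48, SE 0.19). Integrated stress response genes had 7 positive and 3 negative differences (median 0.21), hypoxia genes 3 and 4 (median -0.07) and sterol and lipid synthesis genes 4 and 7 (median -0.06). Antioxidant genes had 7 positive and 3 negative differences (median 0.25), led by Hmox1, heme oxygenase, with 244 and 286 normalized reads in the heterozygous libraries, against 172, 114 and 123 in the wild-type libraries (0.97, SE 0.27). Leaving out 1 library in turn gave medians of -0.28 to 0.06 for heat shock genes (positive without heterozygous replicate 2, wild-type replicate 2 or wild-type replicate 3), 0.11 to 0.40 for the integrated stress response, -0.23 to -0.01 for hypoxia, -0.15 to 0.01 for sterol and lipid synthesis (positive without wild-type replicate 2) and 0.16 to 0.30 for antioxidant genes.

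Neuronal genes had mostly negative differences. Of 8 genes of inhibitory neurons 7 were negative (median -0.31) and none reached an unadjusted p under 0.05. Gad2, an enzyme that makes GABA, had 1321 and 924 normalized reads in the heterozygous libraries, against 1210, 2456 and 1904 in the wild-type libraries (log2 difference -0.69, SE 0.33). Of 6 GABA-A receptor subunits 5 were negative (median -0.56). Gabra5, an alpha subunit known from the hippocampus, had 28.0 and 19.5 in the heterozygous libraries, against 36.6, 74.0 and 104 in the wild-type libraries (-1.45, SE 0.48). For Gad2 wild-type replicate 1 was at the heterozygous level and the other wild-type libraries were higher. All 3 glutamate receptor genes were negative (median -0.87), without reaching an unadjusted p under 0.05. Of 6 synaptic vesicle genes 4 were negative (median -0.29). Rab3a, a GTPase of synaptic vesicles, had 925 and 732 in the heterozygous libraries, against 1014, 2439 and 2036 in the wild-type libraries (-1.06, SE 0.37). The groups did not overlap for Rab3a, and wild-type replicate 1 lay nearest to the heterozygous libraries. The channel list had 1 positive and 3 negative differences (median -0.29), and its median was 0.52 without heterozygous replicate 1 and 0.07 without wild-type replicate 2. Without 1 library in turn the medians ran from -0.60 to -0.11 for inhibitory neurons, from -0.88 to -0.30 for GABA-A receptors, from -1.33 to -0.43 for glutamate receptors and from -0.49 to -0.18 for synaptic vesicle genes. The sizes were smallest without wild-type replicate 2 for the last 3 lists and without heterozygous replicate 2 for inhibitory neurons. Between homozygous sets the inhibitory neuron median was -0.39 (-0.16 without homozygous replicate 4), and through the sets the median between the genotypes was -0.17. For the receptor, vesicle and channel lists the medians between homozygous sets ran from -0.13 to 0.03.

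Several genes that mark brain regions were uneven within both groups, and the part of region genes in the other differences was not tested. Of 9 striatal genes 8 were negative (median -0.59), and the homozygous sets differed by as much (median -0.59), so that through the sets the median was 0.12. The difference between the sets rested on homozygous replicate 4, which stood above the other homozygous libraries for this list, and without it the median between the sets was -0.10. Without 1 library in turn the striatal median ran from -1.12 (without heterozygous replicate 1) to -0.22 (without wild-type replicate 2). Drd1, a dopamine receptor, had 49.1 and 21.8 normalized reads in the heterozygous libraries, against 52.3, 216 and 62.6 in the wild-type libraries (log2 difference -1.42, SE 0.66). Gpr6, a receptor of striatal neurons, had 19.9 and 5.73 in the heterozygous libraries, against 25.1, 55.9 and 39.6 in the wild-type libraries (-1.73, SE 0.59). Slc17a7, a vesicular glutamate transporter from the list of cortical excitatory neurons, had 20317 and 16612 in the heterozygous libraries, against 18506, 30341 and 28215 in the wild-type libraries. Slc6a5, the glycine transporter of hindbrain neurons, had 16.4 and 5.73 in the heterozygous libraries, against 67.9, 33.4 and 27.7 in the wild-type libraries (-1.92, SE 0.58). C1ql2, a gene of the dentate gyrus, had 910 and 21.8 in the heterozygous libraries, against 633, 40.6 and 1520 in the wild-type libraries. C1ql2 thus varied widely inside each group. Slc17a6, of the thalamus list, was more even and lower in the heterozygous libraries (-0.76, SE 0.25). It had 100 and 104 normalized reads there, against 167, 153 and 205 in the wild-type libraries. Of 3 hippocampal genes 1 had a positive and 2 a negative difference (median -1.14, and 0.56 without heterozygous replicate 2). Wfs1 had 4322 and 1360 normalized reads in the heterozygous libraries, against 6478, 4242 and 5526 in the wild-type libraries (-1.14, SE 0.46), with overlap. Dsp was the positive member (1.31, SE 0.53). It had 71.2 and 201 in the heterozygous libraries, against 66.9, 29.8 and 54.7 in the wild-type libraries. The groups did not overlap for Slc17a6 or Dsp.

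Immediate early genes, which neuronal activity induces within minutes, had 4 positive and 13 negative differences (median -0.11), and 2 were lower at an unadjusted p under 0.05. Ptgs2, the inducible cyclooxygenase, had 194 and 188 normalized reads in the heterozygous libraries, against 298, 868 and 440 in the wild-type libraries (log2 difference -1.34, SE 0.42). Jun had 1837 and 1209 in the heterozygous libraries, against 2847, 1905 and 2443 in the wild-type libraries (-0.67, SE 0.26). Arc, a synaptic protein of the same class, ran the other way, with 2596 and 7241 in the heterozygous libraries, against 2080, 3571 and 1547 in the wild-type libraries (0.94, SE 0.49). The median of the list was 0.05 without wild-type replicate 1, 0.03 without wild-type replicate 2 and -0.41 without wild-type replicate 3, so its sign turned with the library left out. Between homozygous sets it was 0.46.

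**Figure D5:**
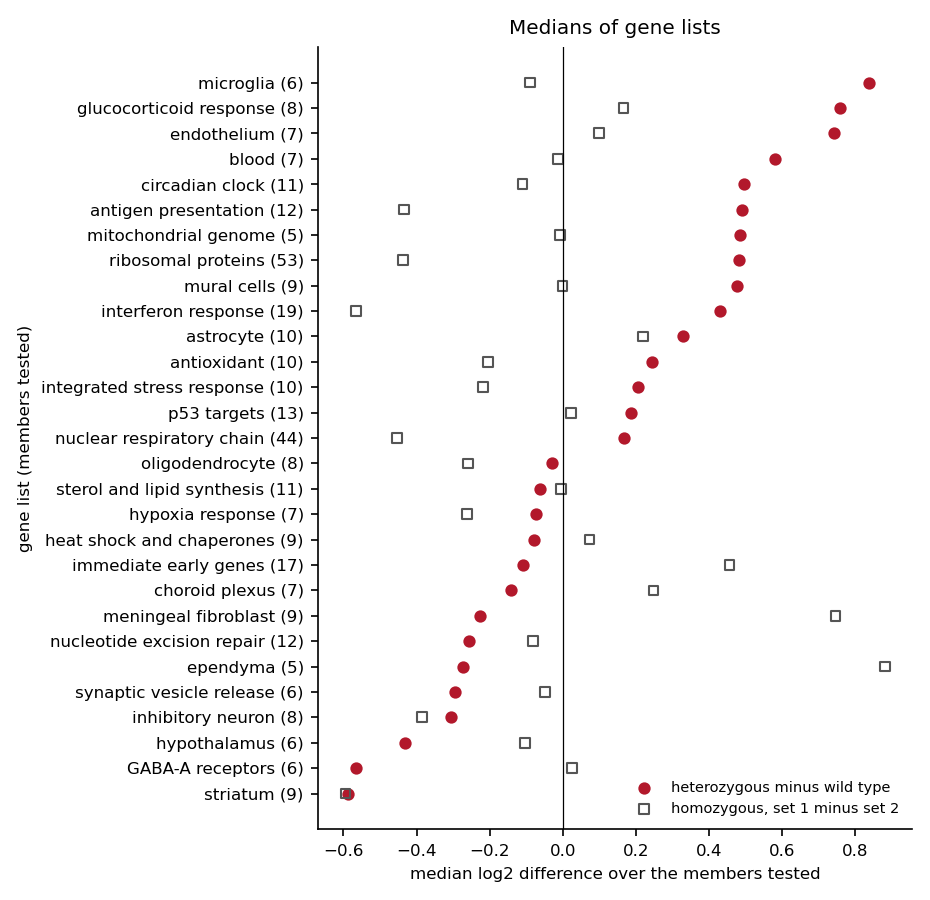
Median log2 difference over the tested members of each gene list with at least 5 members, for heterozygous minus wild type (red circles) and for homozygous set 1 minus set 2 (open squares). The highest red medians are those of microglia (0.84), glucocorticoid response (0.76) and endothelium (0.74), where the squares lie at -0.09, 0.17 and 0.10, while for striatum both lie at -0.59 (the square at -0.10 without homozygous replicate 4).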

How the data were processed

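RNA sequencing was analysed for 2 heterozygous and 3 wild-type libraries, with the 6 homozygous libraries beside them. The submitters' processing notes name HISAT2 2.0.4, FastQC and the build rn6. The read counter, annotation and strand use were not given in the sources used here. Deposited values are a signal per feature: the authors scaled its reads by 1 factor in each library. Reads were recovered, since 100% of the values were whole multiples of that of 1 read (tolerance 0.001). The factors equal median-of-ratios factors computed separately in the 2 sets. The 5 libraries were rescaled together by median of ratios, which moved levels by -1.15% to 1.12%. Features listed in all 5 with a mean of at least 5 were tested in limma 3.58.1 under R 4.3.3 (pseudocount 1, empirical Bayes, mean-variance trend), with Benjamini-Hochberg adjustment and a threshold of 0.05. The members just inside and just outside the minimum had means of 5.00 and 4.999. Alternatives included edgeR 4.0.16, DESeq2 1.42.0 and limma-voom on the recovered reads. The fit was also run on simulated reads, with an outcome not reported here. Counting intervals cover counting error only.

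Named were Ercc6, the features past the threshold and, since no named gene passed, the 12 genes with the smallest p in each direction (names starting with LOC, RGD, AABR or AC left out), and up to 6 members by p of each list, or any member of a list of 12 or fewer. Members and lists were chosen with earlier results of these data known. A few members of the lists are counted there but not reported here by name.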

Additional observations from a re-analysis of the deposited data

Results flagged for a closer look

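In all, 1343 features are listed in the heterozygous files and not in the wild-type ones, and 1699 the other way round. They entered no comparison, and 4 of the 1343 had at least 10 reads over both heterozygous libraries. RT1-CE16, an MHC class I gene (chromosome 20, 3791407 to 3794027, rn6), had 53 reads in heterozygous replicate 1 and 0 in replicate 2, 53 in all. Prl, which encodes the pituitary hormone prolactin, had 17 reads, all in heterozygous replicate 1. An unnamed feature of chromosome 17 (9368462 to 9371313) had 14 reads, all in replicate 2. Nt5c3b, a nucleotidase gene, had 7 and 3 reads, 10 in all. Their levels in the wild-type libraries were not analysed here, so none of these counts is a difference between the groups.

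The heterozygous and wild-type groups are too small to look for a single library far from the rest of its group, so this was done for the 6 homozygous libraries. Over 45 values (normalized reads of Ercc6 and of 6 other features, and the mean log2 level of 38 gene lists), 4 had 1 library whose gap to the nearest other library was a large share of the range of the group, which chance gives in about 1 in 20 groups. Homozygous replicate 4 had a mean log2 level of 9.80 for striatal genes, against 6.87 to 7.80 in the other homozygous libraries, and of 9.29 for genes of inhibitory neurons, against 8.28 to 8.54. Homozygous replicate 6 had 6.39 for genes of mural cells, against 6.90 to 7.16, and 10.27 for antioxidant genes, against 9.71 to 9.87. Replicates 4 and 6 are both of set 2. In a comparison chosen after seeing the data, without the library named, the median log2 difference of set 1 minus set 2 was -0.10 for the striatal list (-0.59 with it), -0.16 for inhibitory neurons (-0.39 with it), -0.22 for mural cells (0.00 with it) and -0.01 for antioxidant genes (-0.21 with it).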

How the results depend on the processing

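Ercc6 kept a negative difference of at least 0.64 in size without any 1 of the 5 libraries (-0.99 to -0.64), and no setting brought it past the threshold. The number of features past the threshold, 3 in limma, was 3 with pseudocounts of 0.5 and 5, with minimum means of 1 and 20, with no minimum, with TMM scaling and with the deposited values as they stand, and each time these were the same features. It was 2 with edgeR and 40 with DESeq2. It was 0 with limma-voom (1275 features at an unadjusted p under 0.05), 0 over features with an Ensembl identifier (567), 0 over features outside chromosomes X and Y, a choice made after seeing the data (1247), and 0 with all 11 libraries and a term for the set (1276), all in limma. With all 11 libraries and no such term it was 2. Leaving out 1 library in turn gave 2 to 3 calls; the features at an unadjusted p under 0.05, 1292 in all, numbered 3030 without wild-type replicate 1, 570 without heterozygous replicate 2, 644 without wild-type replicate 2 and 564 without wild-type replicate 3. Between homozygous set 1 and set 2 DESeq2 called 26 features, and leaving out 1 library in turn gave 0 to 6 calls in limma, with 0 without homozygous replicate 2 (1181 at an unadjusted p under 0.05) or 4 (578) and 6 without homozygous replicate 5. The causes of these shifts were not tested. Heterozygous and wild-type libraries share replicate numbers 1 and 2 only; deviations of same-numbered libraries correlated at 0.15 and 0.21. With the replicate block 4 features passed, among them the 3 of the fit without it, and the numbers are not known to pair the libraries. Of 533 repeats over the 27 other named features none changed direction, 14 no longer passed and 16 newly passed, 15 of them with DESeq2. List medians between libraries left out changed sign for ependyma (-2.08 to 1.70), hippocampus (-1.96 to 0.56), choroid plexus (-1.70 to 0.59) and blood (-0.54 to 1.74), among others, while those of endothelium (0.52 to 1.06), microglia (0.63 to 1.41), mural cells (0.31 to 0.88), clock (0.29 to 0.61) and ribosomal proteins (0.31 to 0.64) stayed positive.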

Other observations

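Several features without a gene name, named here after their values were seen, had groups far apart without passing the threshold in limma, and DESeq2 called them. A feature of chromosome 10 (102325796 to 102416615, plus strand, rn6) had 152 and 323 normalized reads in the heterozygous libraries, against 25.1, 14.4 and 36.4 in the wild-type libraries (log2 difference 3.17, SE 0.49, adjusted p = 0.518). A feature of chromosome 6 (114474879 to 114636930, minus strand) had 3108 and 5449 in the heterozygous libraries, against 1099, 1464 and 1402 in the wild-type libraries (1.65, SE 0.28). A feature of chromosome 15 (33604464 to 33639241, minus strand) had 406 and 437 in the heterozygous libraries, against 163, 165 and 185 in the wild-type libraries (1.30, SE 0.21). That feature shares its strand with 2 overlapping features, so its reads are uncertain. On the lower side, a short feature of chromosome 7 (29022946 to 29023232, plus strand) had 22.2 and 27.5 in the heterozygous libraries, against 97.2, 93.8 and 107 in the wild-type libraries (-1.96, SE 0.29).

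Kif5a, which encodes a neuronal kinesin, took 3.21% of the reads of heterozygous replicate 2. The feature with most reads took 1.41% in heterozygous replicate 1 and 1.02% to 1.50% in the wild-type libraries.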
